A study of Rattus norvegicus with 24 samples.

Results

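The 200 genes whose transcripts rose most while untreated rat oligodendrocyte precursor cells (OPCs) became oligodendrocytes (OLs) were followed into cultures that received dolutegravir (DTG), an HIV integrase inhibitor, or its vehicle DMSO. The genes were chosen on untreated libraries of replicates 1, 2 and 4, as the largest differences between mean OL and mean OPC log2(CPM + 1), where CPM is the number of counts per 1000000 gene counts of the library, among genes with a mean of at least 5 CPM in untreated OLs. Mitochondrial genes and 5 genes, among them Mbp and Mog, were left out, so 9713 of 32883 annotated genes could enter. The libraries that received DMSO or DTG took no part in the choice.

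The study holds 24 libraries in 6 groups of 4 replicates. OPCs were shaken off mixed glial cultures from cortex of newborn Sprague Dawley rats (P0 to P4), and replicates of a group came from independent litters. OPC libraries were made after 24 hours in proliferation medium, either untreated, with the vehicle (DMSO, 0.04%) or with DTG (8 µM). OL libraries were made after these 24 hours and a further 72 hours in differentiation medium with the same additions throughout, and same-numbered libraries share a date in their names, as do those of replicates 2 and 3.

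OLs wrap axons in myelin, a compacted membrane rich in lipids and a few abundant proteins. When OPCs leave the cell cycle they first extend branched processes built on microtubules and then switch on genes for myelin membrane, gap junctions and lipid handling, under transcription factors that include SOX10 and MYRF. Which of these genes a culture expresses, and how strongly, is widely used to judge how far differentiation has gone. In RNA of a whole culture, fewer cells of a type and less RNA per cell cannot be told apart.

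Depth per library was 13241279 to 18499994 gene counts. Mitochondrial transcripts took 2.04% to 2.55% of gene counts in DMSO-treated OLs and 3.96% to 5.70% in DTG-treated OLs. Added ERCC RNA, synthetic transcripts put into equal amounts of total RNA, took 2.19% to 7.19% and 1.89% to 3.72% of all counts in these groups. The labels were checked on genes outside the 200. Mbp, the major myelin basic protein gene, averaged 246 ± 81.5 CPM in OPCs and 7206 ± 2624 CPM in OLs that received DMSO (SD, n = 4 each). Pdgfra, the growth factor receptor of precursors, averaged 691 ± 269 CPM and 163 ± 74.0 CPM in the same groups (SD, n = 4 each). Neither the 11 oligodendrocyte markers nor the endothelial markers on the lists used could be paired with an identifier. Of the microglial list only Cd68 could, at 0.122 to 0.338 CPM in DMSO-treated OLs and 0.320 to 0.505 CPM in DTG-treated OLs. Transcripts on other lists fell between DMSO-treated OPCs and OLs. Sox9 (astrocyte list) averaged 267 and 79.6 CPM, and Acta2 (mesenchymal list) 33.6 and 0.859 CPM. On the neuron list Stmn2 averaged 36.2 and 4.86 CPM and Gad1 28.2 and 1.39 CPM. Of the paired astrocyte, neuron, mesenchymal and Schwann markers only Pmp2 was higher in OLs, at 1.99 and 2.45 CPM.

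Symbols were known for 14 of the 200 genes. Each of the 14 stands in the study's own table of genes changed by DTG in OLs, which is where the symbol was read, so the named genes are no random draw from the 200 and their share of changes says nothing about the rest. The other 186 are given by rank, counts and ranges, and 4 of them by identifier. Of the 14 genes, 11 have a promoter in RefSeq's table for the build GRCr8. The 250 bases before the start of transcription are shown for Pnlip, Gjc3 and S1pr5, which were called lower with DTG in OLs, and for Acot11, whose value lay above its DMSO level. Capitals mark matches, on either strand, to TATAAA, to ACAAAG, a SOX-type core, and to CTGGNAC, a MYRF-type core.
Pnlip, chr1:267784360-267784609, plus strand: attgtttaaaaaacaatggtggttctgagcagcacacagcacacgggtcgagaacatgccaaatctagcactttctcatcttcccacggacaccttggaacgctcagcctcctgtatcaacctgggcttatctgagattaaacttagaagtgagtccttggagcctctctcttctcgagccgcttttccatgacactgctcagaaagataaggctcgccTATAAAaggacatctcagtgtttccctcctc
Gjc3, chr12:22024568-22024817, minus strand: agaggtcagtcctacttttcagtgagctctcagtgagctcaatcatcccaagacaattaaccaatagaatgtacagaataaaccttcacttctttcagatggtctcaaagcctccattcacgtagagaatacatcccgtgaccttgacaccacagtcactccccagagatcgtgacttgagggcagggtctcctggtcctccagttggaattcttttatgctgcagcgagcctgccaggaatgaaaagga
S1pr5, chr8:28067870-28068119, minus strand: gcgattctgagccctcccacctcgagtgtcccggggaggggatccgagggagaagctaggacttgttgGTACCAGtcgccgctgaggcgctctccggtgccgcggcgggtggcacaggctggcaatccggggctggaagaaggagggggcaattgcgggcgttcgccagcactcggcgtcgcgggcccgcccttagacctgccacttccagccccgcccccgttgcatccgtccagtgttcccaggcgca
Acot11, chr5:126804508-126804757, minus strand: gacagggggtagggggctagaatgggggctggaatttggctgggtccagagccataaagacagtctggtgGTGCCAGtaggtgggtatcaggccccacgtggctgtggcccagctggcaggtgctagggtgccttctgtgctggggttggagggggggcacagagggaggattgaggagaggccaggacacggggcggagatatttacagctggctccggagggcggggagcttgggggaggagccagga

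Pnlip has a TATAAA match whose first base lies 31 bases before the annotated start. The CTGGNAC matches of S1pr5 and Acot11 begin 182 and 180 bases before it. Among the 11 promoters, CTGGNAC occurred in these 2, ACAAAG in 1 (Aoc1) and TATAAA in 2 (Pnlip and Aoc1). Over all 33465 promoters of this length, 14.8% hold CTGGNAC, 16.3% hold ACAAAG and 12.9% hold TATAAA. The E-box CANNTG, the short motif bound by basic helix-loop-helix factors, was in 7 of the 11 and in 65.5% of all promoters. A match describes letters in this window and not a bound site.

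In the untreated libraries, whose values chose the genes and are given as a description, the difference on the log2(CPM + 1) scale ran from 5.99 to 2.34 with a median of 3.19. The gene ranked 1 is on chromosome 20 and stood at 2.17 ± 0.494 CPM in OPCs and 205 ± 62.2 CPM in OLs (SD, n = 3). Pnlip ranked 2 and Kif19 ranked 7. The 3 genes just inside the limit had differences of 2.35, 2.34 and 2.34 and the 3 just outside had 2.32 each. Replicate 3 of the untreated cells was counted on another annotation and was not used in the choice. Of the 188 genes whose identifier it lists, 187 had a higher CPM in its OL library than in its OPC library, and 186 had a log2(CPM + 1) difference over 1, with a median of 3.30. The exception was listed at 0 in both of these libraries.

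The 200 genes have ordinary gene models. Their median exonic length was 2436 bases against 2474 bases over the 9713 genes that could enter, and 27.5% span under 10 kb against 28.0%. They lie on 21 chromosomes, with 26 genes on chromosome 1 and 21 on chromosome 5. Chromosome 5 holds 10.5% of them and 6.72% of the genes that could enter. In 15 places, neighbours along a chromosome were both among the 200 with at most 100 kb between them, and 28 genes belong to such places. Kif19 and Acot11 each overlap the end of such a neighbour. In OPCs with DMSO 24 of the 200 averaged below 1 CPM, against 47 of the 9713, a difference that ranking by the rise favours.

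The first comparison asks whether the untreated rise was also seen in vehicle-treated cultures. With gene counts as the scale it was, for every gene. Same-numbered DMSO-treated, DTG-treated and untreated libraries share date codes, and the contrast is the one that chose the genes. The result is therefore not an independent replication of the choice. With DMSO, 200 of 200 genes were higher in OLs than in OPCs (edgeR's quasi-likelihood test, adjusted p under 0.05 and more than 2-fold), where 14.1% of all 13023 genes tested were called higher. Each of the 200 had all 4 OL libraries above all 4 OPC libraries, which held for 15.5% of genes tested. The median log2 fold change was 3.77, against -0.12 over all genes tested, and single genes ran from 1.60 to 8.05. The largest adjusted p among the 200 was 0.00159. Scaled to ERCC RNA, which moved the median of all genes tested to -1.52, 180 of the 200 were called higher, with a median of 2.49. How many of all genes tested were called under this scaling is not given, and the 14.1% above does not apply to it.

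Together the 200 genes took 0.448% to 0.766% of gene counts in DMSO-treated OPCs and 5.84% to 7.70% in DMSO-treated OLs. A single gene, ENSRNOG00000018454 on chromosome 1, from 80612895 to 80617057 (Rnor_6.0), supplied 1.03% ± 0.489 of OL counts (SD, n = 4). Its level per length in DMSO-treated OLs, 6614 CPM per kb of exon, was the highest of the 200, whose median was 35.4 CPM per kb. Among the named genes Pnlip stood highest at 240 CPM per kb, rank 24 of 200, and Aoc1 lowest at 1.83 CPM per kb, rank 194.

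**Figure D1:**
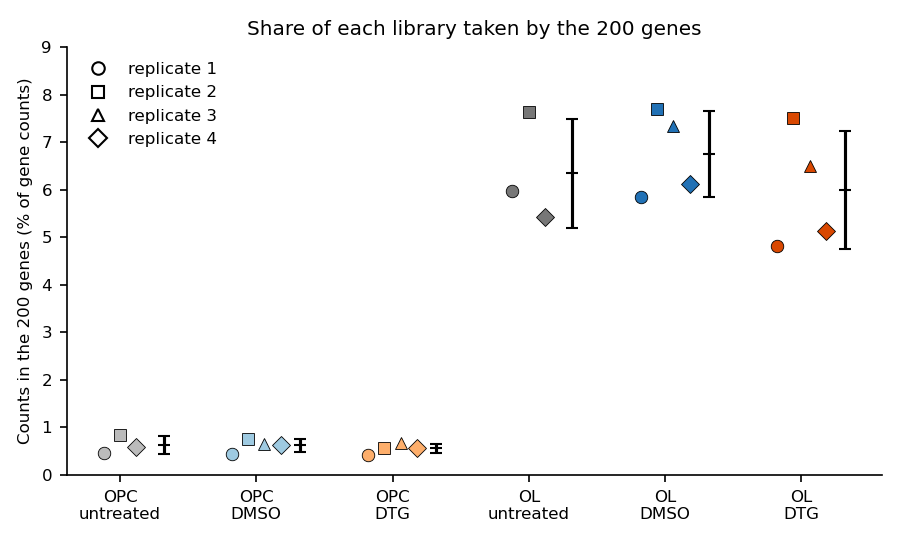
Percentage of each library's gene counts that fell on the 200 genes, by group, with a marker per replicate and the mean and SD of the group beside them in black. The untreated groups have 3 libraries because replicate 3 was counted on another annotation. OPC libraries lie at or below 0.836% and OL libraries between 4.82% and 7.70%, and DMSO-treated and DTG-treated OLs overlap.

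The next comparison asks whether the rise was still there with DTG. With the same scale it was, for every gene that could be tested. Of the 199 genes tested, 199 were higher in DTG-treated OLs than in DTG-treated OPCs, where 16.4% of 13171 genes were called higher, and the median log2 fold change was 3.81 against -0.11 over all genes tested. The smallest rise was 1.77 on the log2 scale. With ERCC scaling 187 were called, with a median of 2.47 against -1.36 over all genes tested. The 16.4% does not apply to that scaling. Aoc1 had too few counts in these libraries to be tested, and DESeq2's Wald test, which kept it, called 200 of 200, where 15.2% of its tested genes were called higher. In all 200 genes every DTG-treated OL library lay above every DTG-treated OPC library, against 16.7% of genes tested. The genes took 4.82% to 7.50% of gene counts in DTG-treated OLs, 5.99% ± 1.24 on average, beside 6.74% ± 0.908 in DMSO-treated OLs (SD, n = 4 each). The ranges overlap, but in 4 of 4 same-numbered pairs the share was lower with DTG, from 5.84% to 4.82%, from 7.70% to 7.50%, from 7.33% to 6.50% and from 6.11% to 5.13% in replicates 1 to 4.

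Whether the rise itself differed between DTG and DMSO was tested as an interaction over 16 libraries. No gene was called, among the 200 or among 13734 tested (0%), and DESeq2 called none of the 200, with 0.0149% of its tested genes called as rising more and 0.00497% as rising less. At an unadjusted p under 0.05 there were 14 of the 200, or 7%, against 2.68% of all genes tested. Of these 14, 11 rose less with DTG and 3 rose more. Over all 200 there was no such lean. The median interaction was 0.0059 on the log2 scale, against 0.038 over all genes tested, with 99 of the 200 below 0 and 101 above. With the replicate number as a block, 27 passed this unadjusted limit, 16 rising less and 11 rising more, against 4.47% of genes tested. The smallest interaction p-values belonged to S1pr5, with rises of 4.31 and 2.68 on the log2 scale with DMSO and DTG, and to Gjc3, with 3.71 and 1.78. Their adjusted p was 1.00 in edgeR, so a difference in the rise was not established for either gene.

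**Figure D2:**
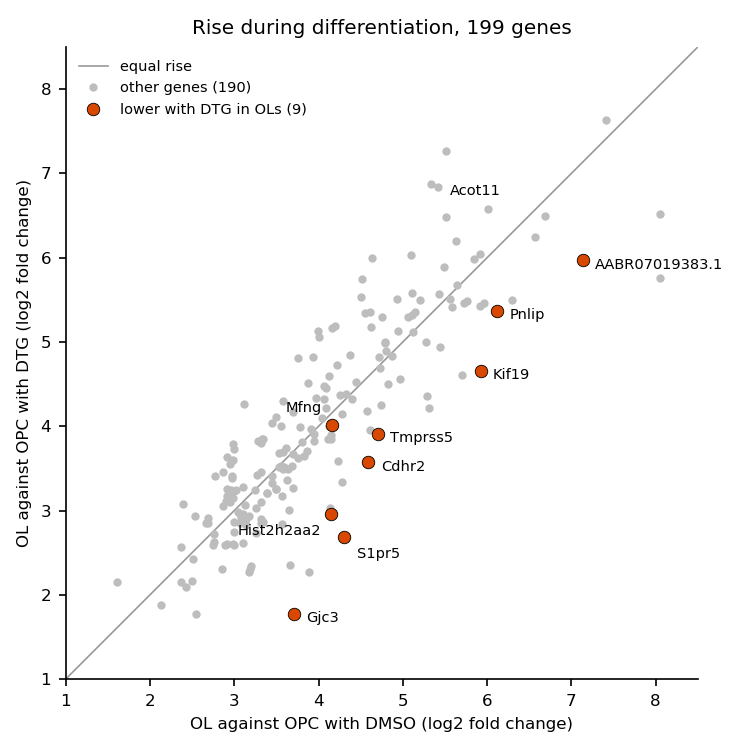
Log2 fold change of OLs against OPCs with DMSO (horizontal) and with DTG (vertical) for the 199 genes tested in both, from separate edgeR fits. The line marks an equal rise. All points lie above 1 on both axes, the 9 genes called lower with DTG in OLs are orange and fall on or below the line, and Acot11 lies above it.

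In OLs, with gene counts as the scale, most of the 200 genes were near their DMSO level with DTG and a small group was below it. With DTG 9 of the 200 genes were called lower, 4.5%, against 0.212% of the 12710 genes tested. They were Tmprss5, Gjc3, AABR07019383.1, Hist2h2aa2, Kif19, S1pr5, Mfng, Pnlip and Cdhr2. None was called higher by edgeR, where 0.37% of all genes were. This comparison and the rise with DMSO share the DMSO-treated OLs, so their values are not independent. DESeq2 called 13 lower and 1 higher, where it called 0.403% and 0.589% of all genes, and its 13 are the 9 with Aoc1, Tppp, Pgf and Cnksr3. At an unadjusted p under 0.05, which 12.9% of genes reached, 16 of the 200 were higher and 41 lower, 28.5% together. The median log2 fold change was -0.16, against 0.01 over all genes tested, with quartiles of -0.39 and 0.11, and 143 of the 200 genes were within 0.5 of 0.

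The count of called genes depends on how replicate numbers and single libraries enter the fit. With the replicate number as a block, 15 genes were called lower and 2 higher, where 0.566% and 0.795% of all genes were called. All 9 stayed among the 15, and the 6 added ones were Aoc1, Pgf, Cnksr3 and 3 genes without a symbol. The count was 2 without DMSO-treated replicate 2, 4 without DMSO-treated replicate 3 and 5 without DTG-treated replicate 4, and 8 to 11 without any other library. Calls over all genes fell too. With all libraries 27 genes were called lower, and in the same fits 8, 17 and 16 were, and 19 to 32 without any other library. The mitochondrial share of counts was higher in every DTG-treated than in any DMSO-treated OL library, as given above, and the count was 9 with mitochondrial genes left out of the scaling. Scaled to ERCC RNA instead of gene counts, which moved the median of all genes tested from 0.01 to 0.59, none of the 200 was called. The median of the 200 then turned from -0.16 to 0.34, which is 0.25 below the median of all genes. How many of all genes tested were called under ERCC scaling is not given, so the absence of calls shows nothing particular to the 200.

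Small differences in one direction were common. The log2 fold change was below 0 for 133 of the 200 genes, 66.5%, against 48.7% of genes tested, although under ERCC scaling only 45 of the 200 were below 0. With gene counts as the scale it was below 0 for 108 of the next 200 genes in the ranking. The same held for 139 of the 188 tested among the 200 genes that fell most in untreated differentiation. This lean was therefore not particular to genes that rose. In 73 genes, 36.5%, the DTG-treated library was below its DMSO-treated same-numbered partner in all 4 pairs, against 13.9% of genes tested, and in 23 genes, 11.5%, it was above in all 4, against 13.7%. The median difference within a pair on the log2(CPM + 1) scale was -0.32, -0.13, -0.11 and -0.17 in replicates 1 to 4. CPM, used here and in the counts of pairs, lack the library scaling factors of the test. These were 0.960 and 1.08 for DMSO-treated and DTG-treated replicate 4, so its difference would be lower on the scale of the test. In replicates 1 to 3 the factor with DTG was the smaller one, so their differences would be higher. All 4 DTG-treated OL libraries lay below all 4 DMSO-treated ones for 19 genes, 9.5%, against 4.89%, and above them for 5 genes, 2.5%, against 4.04%.

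Called genes were spread over the whole ranking. The median log2 fold change with DTG in OLs was -0.18 for ranks 1 to 50, -0.10 for ranks 51 to 100, -0.19 for ranks 101 to 150 and -0.17 for ranks 151 to 200. These groups held 3, 1, 3 and 2 of the called genes. The next 200 genes in the ranking had a median of -0.056, with 1 called lower and none higher. Of all genes tested, 0.212% were called lower and 0.37% higher. The 200 genes that fell most in untreated differentiation had a median of -0.24 over the 188 tested, with none called in either direction. Those falling genes stood at a median of 4.42 CPM in DMSO-treated OLs, against 91.9 CPM for the 200 and 47.9 CPM for the next 200. Counts that low limit which of them could be called. No test of the difference between these groups of genes was made.

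**Figure D3:**
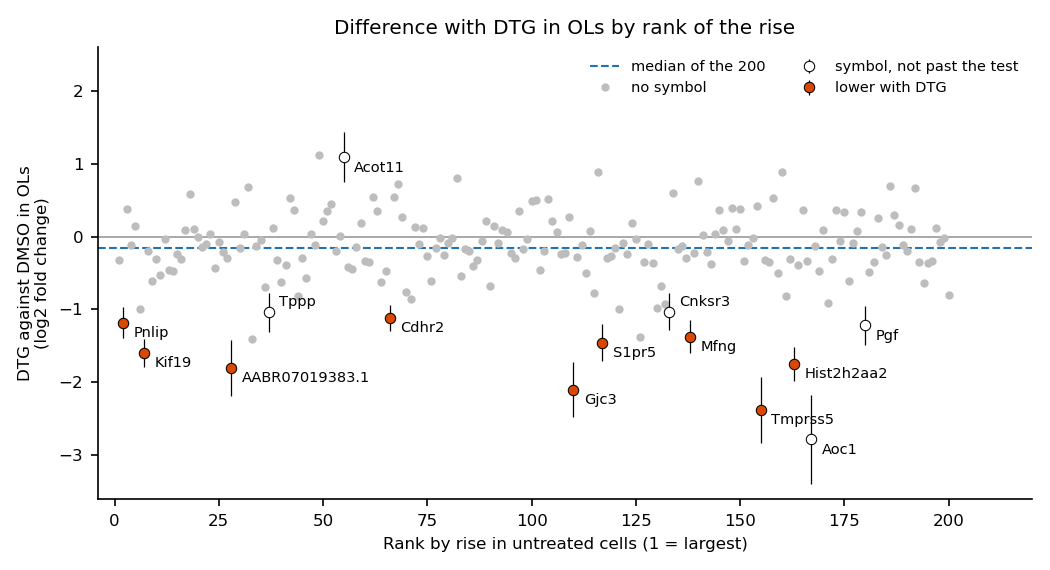
Log2 fold change of DTG-treated against DMSO-treated OLs for the 200 genes, ordered by rank of the untreated rise from 1 (largest) to 200. Orange points are the 9 genes called lower, white points the 5 named genes that did not pass the test, both with their standard error, and grey points the genes without a symbol. The dashed line is the median of -0.16, and called genes occur from rank 2 to rank 163.

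Gjc3, S1pr5 and Cdhr2 act at the cell surface or between cells. Gjc3 encodes connexin 29, a gap junction protein of myelinating glia, and ranked 110. It was counted on a model of 1 exon on chromosome 12, from 19166239 to 19167015 (Rnor_6.0, minus strand). Its CPM was 20.9, 31.0, 25.1 and 8.81 in DMSO-treated OLs of replicates 1 to 4 and 3.35, 6.85, 6.71 and 3.41 with DTG. Replicate 4 was the lowest with DMSO, yet every DTG-treated library lay below it. With DTG the log2 fold change was -2.10 (SE 0.37, edgeR adjusted p = 0.0187). DMSO-treated and DTG-treated OPCs had 2.09 ± 0.711 and 1.94 ± 0.299 CPM (SD, n = 4 each), so OLs with DTG kept a level 1.78 above OPCs with DTG on the log2 scale (SE 0.36, adjusted p = 0.00138). The call was lost without DMSO-treated replicate 2 or 3 or DTG-treated replicate 4. In the untreated replicate 3, on the other annotation, it was at 8.02 CPM in OPCs and 95.1 CPM in OLs, above every other library of the same stage.

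S1pr5, a receptor for sphingosine 1-phosphate that is typical of the oligodendrocyte lineage, ranked 117. DMSO-treated OLs had 34.3, 38.0, 33.9 and 19.1 CPM and DTG-treated OLs had 11.7, 13.3, 14.0 and 7.22 CPM. Replicate 4 was lowest in both groups, and the groups did not overlap. In edgeR the log2 fold change was -1.45 (SE 0.26, adjusted p = 0.018), and it lost the call without DMSO-treated replicate 2 or 3. Cdhr2, a cadherin known from the contacts between microvilli, ranked 66. It stood at 75.1, 103, 70.0 and 62.6 CPM with DMSO and at 33.6, 43.2, 34.7 and 34.6 CPM with DTG in OLs. The groups did not overlap and replicate 2 was the highest in each. DTG against DMSO gave a log2 fold change of -1.11 (SE 0.18, adjusted p = 0.0116), and it lost the call without DMSO-treated replicate 2.

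Kif19 and Tppp act on microtubules, the tracks along which OL processes grow. Kif19, a kinesin motor that shortens microtubules at the tips of cilia, had the lowest adjusted p of the named genes with DTG in OLs. DMSO-treated OLs had 113, 158, 99.2 and 96.9 CPM and DTG-treated OLs had 34.7, 47.0, 41.3 and 33.9 CPM. All DTG-treated libraries lay far below the lowest DMSO-treated one. The log2 fold change was -1.60 (SE 0.20, adjusted p = 0.00253), and the call held in each of the 8 fits that left out 1 library. OPCs had 2.46 ± 0.671 CPM with DMSO and 2.03 ± 0.743 CPM with DTG (SD, n = 4 each), and the rise was 5.92 with DMSO and 4.65 with DTG on the log2 scale. Kif19 overlaps the gene ranked 157 by 415 bases, which had a log2 fold change of -0.35 with DTG.

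Tppp promotes tubulin polymerization in OL processes and ranked 37. It stood at 64.5, 52.1, 37.2 and 21.7 CPM in DMSO-treated OLs and at 18.8, 26.7, 21.4 and 18.5 CPM with DTG. Replicate 4 with DMSO lay within the range of the DTG-treated libraries, so the groups overlap, although DTG was lower in 4 of 4 pairs. A log2 fold change of -1.04 (SE 0.27) did not pass the test (adjusted p = 0.0984). With the replicate block it was -0.98 (adjusted p = 0.000687), just under the fold limit.

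Pnlip, Tmprss5, Mfng, Aoc1 and Acot11 encode enzymes. Pnlip, the pancreatic triglyceride lipase, had 358, 494, 369 and 204 CPM in DMSO-treated OLs and 151, 163, 161 and 162 CPM in DTG-treated OLs. The DTG-treated libraries lay close together and all below replicate 4 with DMSO, the lowest of its group. With DTG the log2 fold change was -1.18 (SE 0.21, adjusted p = 0.0195), and the call was lost without DMSO-treated replicate 2 or 3 or DTG-treated replicate 4 and with all 16 libraries in 1 fit (adjusted p = 0.0961). OPCs had 6.55 ± 3.66 CPM with DMSO and 5.06 ± 1.86 CPM with DTG (SD, n = 4 each), and the rise of 6.11 on the log2 scale with DMSO was 5.37 with DTG.

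Tmprss5, a serine protease anchored in the membrane, was at 9.10, 12.4, 10.2 and 3.43 CPM with DMSO and at 1.14, 1.88, 3.20 and 0.682 CPM with DTG in OLs. Replicate 4 was lowest in each group and the groups did not overlap, although its DMSO value was only just above the highest DTG value. In edgeR the log2 fold change was -2.37 (SE 0.45, adjusted p = 0.0274), and it kept the call in 4 of the 8 fits that left out 1 library. Mfng, manic fringe, adds sugars to Notch receptors. It was at 15.3, 18.3, 16.4 and 11.9 CPM with DMSO and at 7.64, 6.85, 5.56 and 4.37 CPM with DTG. Again replicate 4 was lowest and the groups did not overlap. DTG against DMSO gave a log2 fold change of -1.37 (SE 0.22, adjusted p = 0.0116), and the call was lost without DMSO-treated replicate 2 and with all 16 libraries in 1 fit (adjusted p = 0.0905).

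Aoc1 encodes diamine oxidase, which breaks down histamine and putrescine. It had 2.90, 10.7, 4.93 and 2.08 CPM in DMSO-treated OLs and 0.268, 1.59, 0.895 and 0.398 CPM in DTG-treated OLs. The groups did not overlap, but DMSO-treated replicate 2 was far above its partners. Its log2 fold change of -2.78 (SE 0.61) was the lowest of the 200 and did not pass the test (adjusted p = 0.0549). With the replicate block it did (-2.69, adjusted p = 2.05e-06), as it did with DESeq2 (adjusted p = 0.0247).

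Acot11, an acyl-CoA thioesterase that releases fatty acids from coenzyme A, was the named gene above its DMSO level. DMSO-treated OLs had 8.70, 16.7, 18.3 and 17.8 CPM and DTG-treated OLs had 13.6, 43.3, 42.1 and 33.8 CPM. Replicate 1 was the lowest in each group and made the groups overlap, while DTG was higher in 4 of 4 pairs. Its log2 fold change of 1.09 (SE 0.34) did not pass the test (adjusted p = 0.169), while it passed with the block (1.04, adjusted p = 0.000227) and with DESeq2 (1.09, adjusted p = 0.0415). Without DTG-treated replicate 1 both Acot11 and its neighbour described next were called, the only fit without 1 library that called any of the 200 higher (2 genes). The other gene that the block called higher, ENSRNOG00000007799, lies beside it on chromosome 5 on the opposite strand, from 126334803 to 126347770, and shares 336 bases with Acot11, from 126347435 to 126395668 (Rnor_6.0). It had 8.96, 16.2, 21.4 and 17.6 CPM with DMSO and 13.2, 44.6, 48.0 and 35.9 CPM with DTG. Replicate 1 was the lowest library with either treatment here too, and the groups overlap. The library kit named in the methods does not mark strand, so reads in the shared stretch cannot be assigned to either gene from the counts.

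Pgf and Cnksr3 belong to signalling, and Hist2h2aa2 and AABR07019383.1 complete the named genes. Pgf, placental growth factor of the VEGF family, was at 4.94, 8.30, 5.14 and 7.46 CPM with DMSO and at 3.95, 2.09, 2.24 and 3.12 CPM with DTG in OLs. The groups did not overlap. A log2 fold change of -1.22 (SE 0.27) missed the limit (adjusted p = 0.0586) and passed with the block (-1.20, adjusted p = 0.00506). Cnksr3, a scaffold protein of kinase signalling, was at 91.8, 112, 103 and 54.7 CPM with DMSO and at 36.5, 54.0, 56.1 and 31.1 CPM with DTG. Its groups overlapped through replicate 4 with DMSO, which lay below replicate 3 with DTG. Its log2 fold change of -1.03 (SE 0.25) missed the limit (adjusted p = 0.0865) and passed with the block (-1.04, adjusted p = 1.44e-05).

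Hist2h2aa2, a histone H2A gene of 1 exon with near-identical copies elsewhere in the genome, was at 10.6, 13.1, 13.3 and 10.0 CPM with DMSO and at 3.02, 3.68, 4.67 and 2.95 CPM with DTG in OLs. The groups did not overlap and the call held in each of the 8 fits that left out 1 library. The log2 fold change was -1.74 (SE 0.23, adjusted p = 0.0034). Only uniquely mapped reads were counted, and how reads of near-identical copies were divided is uncertain. AABR07019383.1, a clone-based name with no stated function, was at 17.3, 42.0, 32.8 and 14.9 CPM with DMSO and at 5.23, 13.7, 5.50 and 7.10 CPM with DTG. The groups did not overlap. With DTG the log2 fold change was -1.80 (SE 0.38, adjusted p = 0.0457), and the call held in only 2 of the 8 fits that left out 1 library.

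**Figure D4:**
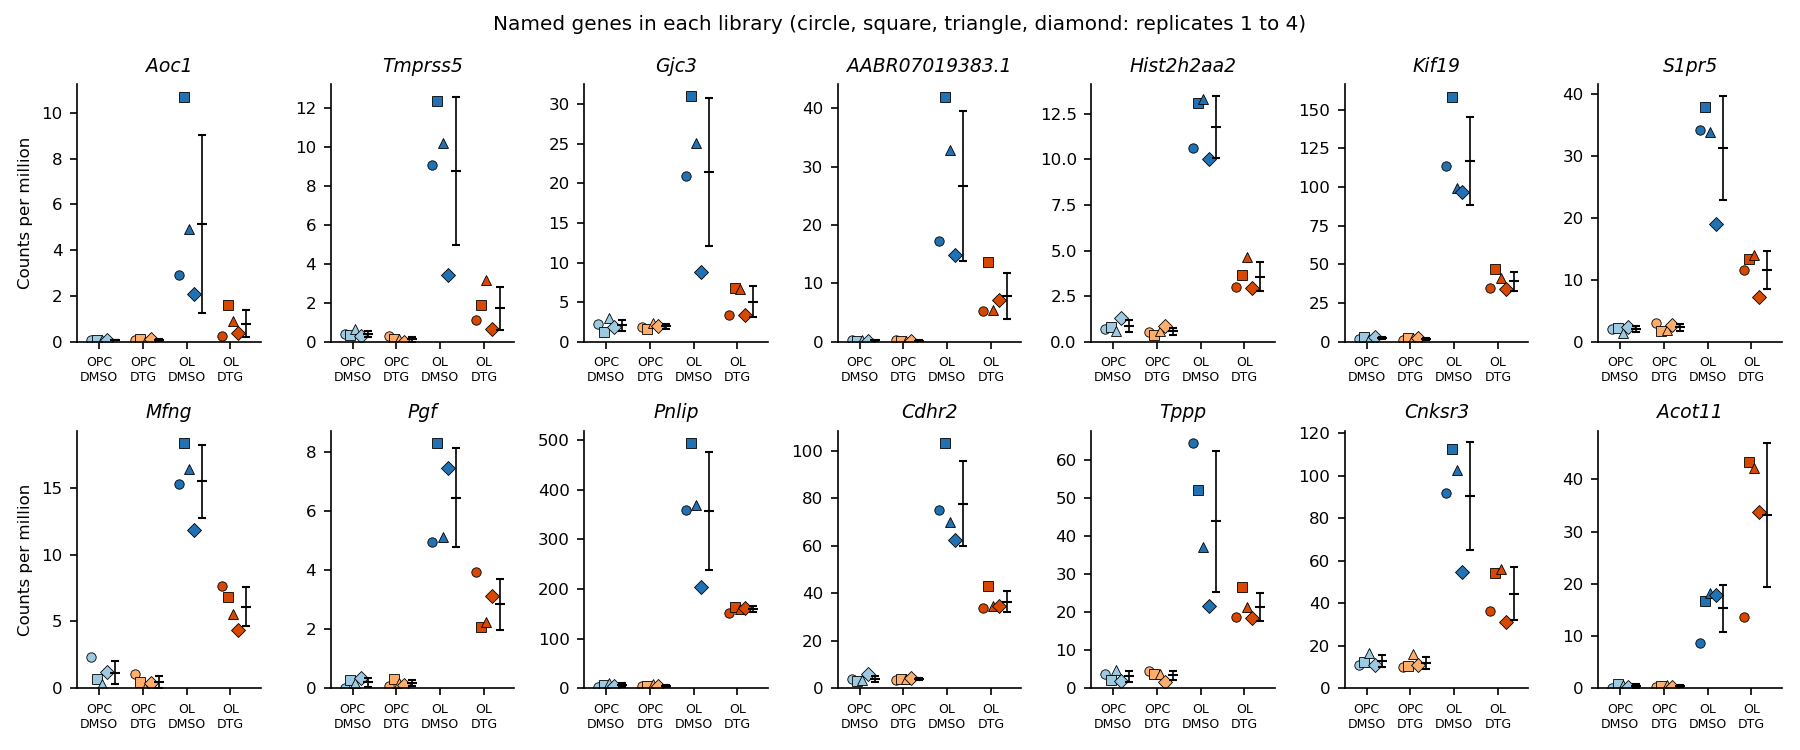
CPM of the 14 named genes in the 4 libraries of each DMSO-treated and DTG-treated group, with the mean and SD in black, ordered from the lowest to the highest log2 fold change with DTG in OLs. Each panel has its own scale starting at 0. In 11 of the panels all DTG-treated OL libraries lie below all DMSO-treated ones, which held for 4.89% of all genes tested. In the panels of Tppp, Cnksr3 and Acot11 the groups overlap. All 14 symbols were read from the study's own table of genes changed by DTG in OLs. That choice favours separated groups, so the count of 11 is no measure of a DTG effect.

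A further 2 genes without a symbol stood out by size or by test and were chosen after their values were seen. ENSRNOG00000021023, ranked 33 and at 486, 983, 804 and 288 CPM in DMSO-treated OLs, was at 171, 392, 312 and 88.3 CPM with DTG. Both groups follow the same order of replicate numbers and overlap. A log2 fold change of -1.41 (SE 0.45) did not pass the test (adjusted p = 0.172), and with the replicate block it was -1.50 (adjusted p = 3.43e-08). ENSRNOG00000019176, ranked 71, was at 138, 115, 75.2 and 126 CPM with DMSO and at 67.1, 63.3, 51.8 and 73.9 CPM with DTG. Its groups do not overlap, and the log2 fold change of -0.85 (SE 0.17, adjusted p = 0.0325) is under the fold limit. The most abundant gene of the 200, ENSRNOG00000018454, had a log2 fold change of 0.061 (SE 0.41, adjusted p = 0.966).

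In OPCs, after 24 hours of DTG, none of the genes was called. Of the 200 genes 179 had enough counts to be tested, and 0 were called in edgeR, where 0% of 13270 genes were, and 0 of 200 in DESeq2. At an unadjusted p under 0.05 edgeR gave 2 of the 179, 1.12%, both lower, against 0.52% of genes tested, and 12 with the replicate block, 6.70%, against 6.56%. The median log2 fold change was -0.18, against -0.003 over all genes tested, and 142 of the 179 genes were below 0, 79.3%, against 50.3% of genes tested. Within pairs the median log2(CPM + 1) difference was -0.0086, -0.34, -0.016 and -0.038, largest in size in replicate 2. These CPM lack the library scaling factors of the test. The factors were 0.875 and 0.959 for DMSO-treated and DTG-treated replicate 4, so its difference would be lower on the scale of the test. Replicates 1 (1.05 and 1.08) and 2 (0.959 and 1.02) would be lower too, and replicate 3 (1.04 and 1.03) higher. Under ERCC scaling the median of the tested genes turned to 0.24, below that of all genes at 0.38. The genes are low in OPCs, at a median of 8.61 CPM with DMSO, which limits what these libraries could show.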

How the data were processed

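Per the labels, 24 libraries of rat OPCs and OLs were deposited. Following the study's methods, the authors enriched poly(A) RNA, aligned trimmed reads with STAR 2.5.2b and counted unique reads on exons with featureCounts of Subread 1.5.2, and the authors deposited raw counts per gene. The submitters' processing notes name Rnor_6.0. Untreated replicate 3 was counted on an annotation of 30560 genes and entered no test.

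The analysis of the counts used edgeR 4.0.16 and limma 3.58.1 under R 4.3.3. ERCC rows were left out, filterByExpr removed low counts, TMM scaled the libraries and a quasi-likelihood F test without covariates was fitted to the 8 libraries compared, or to 16 for the interaction. Adjusted p is Benjamini-Hochberg's, taken over every gene in the test. A gene was called where it was under 0.05 and the change exceeded 2-fold in either direction. Alternatives used DESeq2 1.42.0, its size factors, ERCC scaling, TMM without mitochondrial genes, a legacy fit, no filter, all 16 libraries, a replicate block, no minimum fold, 100 or 400 genes and each library left out. TMM without mitochondrial genes and the legacy fit were added after seeing the data. The code was tested on simulated data.

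The 200 genes, the gene lists and the tests were chosen with earlier results of these data known. Named genes are those of the 200 with a symbol that were among the 10 largest falls or rises with DTG, the 10 largest rises with DMSO, the 10 largest untreated differences or the 10 highest levels per length, or that stood on a list. All 14 with a symbol were named. Other identifiers were chosen after their values were seen. Only 58 of 307 symbols on 21 gene lists could be paired with an identifier, and no list reached 80%, so counts by list are void and not given. The study's methods state that replicates came from independent litters, and same-numbered libraries share a date code in their names. That they share a litter was not stated in the sources used here. The correlation of deviations from the group mean of libraries with one number under DMSO and DTG was 0.47, 0.43, 0.49 and -0.04 in OLs and 0.78, -0.15, 0.63 and 0.86 in OPCs. Depth limits weakly expressed genes most.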

Additional observations from a re-analysis of the deposited data

Results flagged for a closer look

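In 3 of 56 groups of 4 libraries of named genes, the most extreme library stood apart from the others by Dixon's criterion, and chance gives about 1 such group in 20. Kif19 was at 0.928 CPM in DTG-treated OPCs of replicate 1, beside 2.28 to 2.48 CPM in the others. Cdhr2 was at 43.2 CPM in DTG-treated OLs of replicate 2, beside 33.6 to 34.7 CPM. Cnksr3 was at 15.9 CPM in DTG-treated OPCs of replicate 3, beside 10.1 to 10.8 CPM.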

How the results depend on the processing

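The number of genes called higher in OLs was 200 with DMSO and 199 with DTG without any 1 library. The number called lower with DTG in OLs was 9 and ranged from 2 to 11 without 1 library, and the number called higher ranged from 0 to 2. Over all genes tested the number called lower was 27 and ranged from 8 to 32 without 1 library. With ERCC scaling 180 were called higher in OLs with DMSO and 187 with DTG, 0 were called lower with DTG and the median log2 fold change with DTG in OLs reversed from -0.16 to 0.34, while those of the rise moved from 3.77 to 2.49 with DMSO and from 3.81 to 2.47 with DTG. ERCC scaling moves all genes of a library together, and why ERCC shares differ was not tested. Shares of all genes called under ERCC scaling are not given. With the replicate block 15 were called lower and 2 higher, and the block left the other counts of genes called at the adjusted p and fold limits as they were. Counts at an unadjusted p under 0.05 moved from 14 to 27 in the interaction, where the share of all genes moved from 2.68% to 4.47%. In OPCs they moved from 2 to 12, where that share moved from 0.52% to 6.56%. The count called lower in OLs at any fold moved from 11 to 39 and higher from 0 to 15. The share of all genes called at any fold is not given, so these counts show nothing particular to the 200. DESeq2 called 1 higher. With the 100 largest differences in place of 200, 4 were called lower, 100 were higher in OLs with either treatment and the median rise was 4.60 with DMSO and 4.83 with DTG. With 400 these counts were 399 with DMSO and 397 with DTG, and the medians were 3.00 and 3.03, as the larger set holds smaller untreated differences by construction. Without 1 library the median difference with DTG in OLs ranged from -0.27 to -0.065, and the median rise from 3.68 to 3.87 with DMSO and from 3.64 to 3.88 with DTG. None of the 200 genes was called with DTG in OPCs or in the interaction under any alternative (0 to 0 without 1 library). The named genes' differences with DTG in OLs and rises with DMSO, the values recomputed under each alternative, did not change direction.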
